A study of Bos taurus and Bos indicus with 12 samples.

Results

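The Toll-like receptors and their adaptor MYD88 were followed in cattle skin through 9 probe sets, which measure 7 genes: TLR2, TLR3, TLR4, TLR5, TLR6, TLR9 and MYD88. They were all the probe sets, among the 24016 tested, whose gene symbol on the platform was TLR followed by digits or MYD88; 13292 of the tested probe sets carried 1 gene symbol, for 9155 genes. TLR3 had 3 probe sets, told apart by the ends of their identifiers (S1_at, A1_a_at and A1_at), and each of the other genes had 1. TLR7, TLR8 and TLR10 were not analysed here. The arrays measured RNA from full-depth punch biopsies of skin, with 1 female animal on each of 12 Affymetrix bovine arrays. The animals formed 4 groups of 3. Naive Holstein-Friesian cattle were 12 months old and naive Brahman cattle were 18 months old, and neither had met the cattle tick Rhipicephalus microplus. Infested Holstein-Friesian and infested Brahman cattle were all 6 months old, had been through repeated heavy infestations, and were biopsied where young larvae were attached. Brahman, an indicine breed, is known for its resistance to ticks, whereas Holstein-Friesian, a dairy breed of taurine origin, is known as susceptible. Within each breed, infestation and age changed together and cannot be told apart, and the infested groups were the pair that shared an age. The animals were separate, so the spread within a group includes differences between animals.

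Toll-like receptors are membrane proteins that recognise molecules shared by many microbes, and some products of damaged tissue. TLR2, TLR4, TLR5 and TLR6 act mainly at the cell surface, whereas TLR3 and TLR9 sense nucleic acids inside endosomes. Most of them, with TLR3 as the exception, pass the signal through MYD88 to the IRAK kinases and TRAF6, which leads to NF-kappa-B and to transcription of inflammatory cytokines. In skin they are found on macrophages, dendritic cells and mast cells, and also on keratinocytes and endothelium.

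Levels are given as deposited, on the log2 scale of the RMA method, on which a difference of 1 is a 2-fold change, and they are compared between arrays and never between probe sets. The median level of the 12 arrays lay between 6.58 and 6.73. As a check of the tissue, the mean level of 5 keratinocyte markers was between 12.9 and 13.6 on every array. An index of RNA integrity, the mean log2 difference between the 5' and the 3' probe sets of 5 control transcripts, lay between -1.39 and -0.82 in the 6 naive arrays. It was -2.73, -0.75 and -1.23 in infested Holstein-Friesian skin and -4.91, -2.56 and -2.07 in infested Brahman skin. All 3 infested Brahman arrays thus lay below all naive arrays on this index, with infested Brahman animal 1 the lowest.

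TLR2 was the receptor whose level was higher in all infested animals. TLR2 senses bacterial lipoproteins as a dimer with TLR1 or TLR6. Its level was 6.91, 6.69 and 6.46 in the naive Holstein-Friesian animals and 7.35, 8.17 and 7.20 in the infested ones. In Brahman skin it was 6.60, 6.56 and 6.90 without ticks and 8.75, 7.36 and 7.33 with them. The groups did not overlap in either breed, and the lowest of the 6 infested animals stood above the highest of the 6 naive animals. Such separation in either direction was seen for 30.3% of all probe sets in Holstein-Friesian, 38.5% in Brahman and 12.6% over both breeds together. Ordered by mean, the groups ran from naive Holstein-Friesian (6.69 ± 0.22) and naive Brahman (6.69 ± 0.19) to infested Holstein-Friesian (7.57 ± 0.53) and infested Brahman (7.81 ± 0.81; SD, n = 3 each). The naive groups overlapped each other, as did the infested groups.

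**Figure D1:**
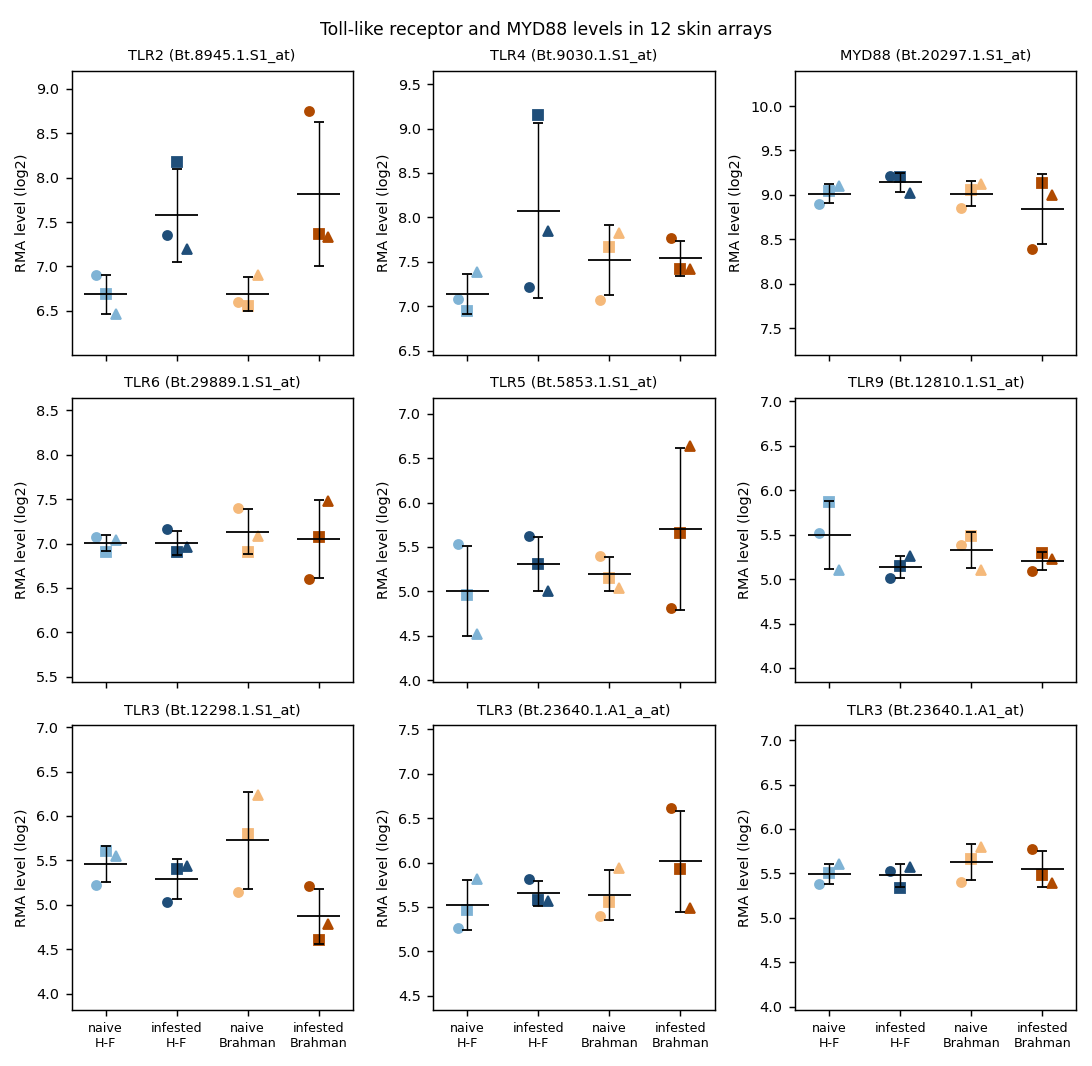
RMA level (log2, vertical axes, each panel on its own range) of the 9 probe sets in the 4 groups named below the columns, with H-F for Holstein-Friesian; points are animals (circle 1, square 2, triangle 3), long bars are group means and short bars 1 SD. TLR2 is the probe set whose infested animals (7.20 to 8.75) all lie above the naive animals (6.46 to 6.91), while TLR4 is high in infested Holstein-Friesian animal 2 (9.15).

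The TLR2 difference between infested and naive skin was 0.89 ± 0.36 (log2, SE) in Holstein-Friesian, a 1.85-fold difference with a 95% interval of 0.087 to 1.69 and a limma adjusted p of 0.185. In Brahman it was 1.12 ± 0.36, or 2.18-fold, with an interval of 0.32 to 1.93 and an adjusted p of 0.0513. Neither breed alone passed the threshold of 0.05. Averaged over both breeds, TLR2 rose by 1.01 ± 0.26, a 2.01-fold rise that passed the test with a limma adjusted p of 0.0152, and it was higher in 6 of 6 infested animals. This average was added after the values were seen. At the same threshold, 27.9% of all probe sets were called in the average, and TLR2 was the 1 probe set of 9 called there, so the 11.1% of members called was below the background.

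The TLR2 average over both breeds passed with each of the 12 arrays left out in turn, at 0.77 to 1.13, and failed in 1 of 20 alternatives, with the integrity index as a covariate (0.65, adjusted p = 0.181; range over the alternatives 0.00394 to 0.181). The Brahman difference passed in 8 of 21 alternatives, with adjusted p between 0.032 and 0.564. It was 0.66 (adjusted p = 0.107) without infested Brahman animal 1, the animal of highest TLR2 and lowest index, and 0.53 (adjusted p = 0.564) with the index as a covariate. It passed without infested Holstein-Friesian animal 2, infested Brahman animal 2 or infested Brahman animal 3. The Holstein-Friesian difference passed in 3 of 22 alternatives, with adjusted p between 0.0272 and 0.441, namely with array weights (0.87, adjusted p = 0.0376), without infested Brahman animal 1 (0.89, adjusted p = 0.0392) and without the 2 arrays of lowest index (1.00, adjusted p = 0.0272). It was 0.59 (adjusted p = 0.441) without infested Holstein-Friesian animal 2. Whole skin was measured, so a change in the number of cells of a type and a change in RNA per cell cannot be told apart.

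Macrophage markers moved in the same direction as TLR2. Of 9 measured markers of monocytes and macrophages, 6 were higher in infested Holstein-Friesian skin and 4 in infested Brahman skin, and none was lower, where 5.02% and 19.8% of all probe sets were called in either direction. The mean level of the list was 6.77 to 7.76 in naive and 8.68 to 8.90 in infested Holstein-Friesian animals, and 7.02 to 7.53 in naive and 8.28 to 8.69 in infested Brahman animals. MSR1, a macrophage scavenger receptor, rose by 1.83 (adjusted p = 0.00191) and 2.14 (adjusted p = 0.000184) in Holstein-Friesian and Brahman, and ITGAM, which neutrophils share, did not pass in either (-0.18 and 0.093). The part of macrophage number in the TLR2 difference was not tested, nor was that of the integrity index beyond the fits above.

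**Figure D2:**
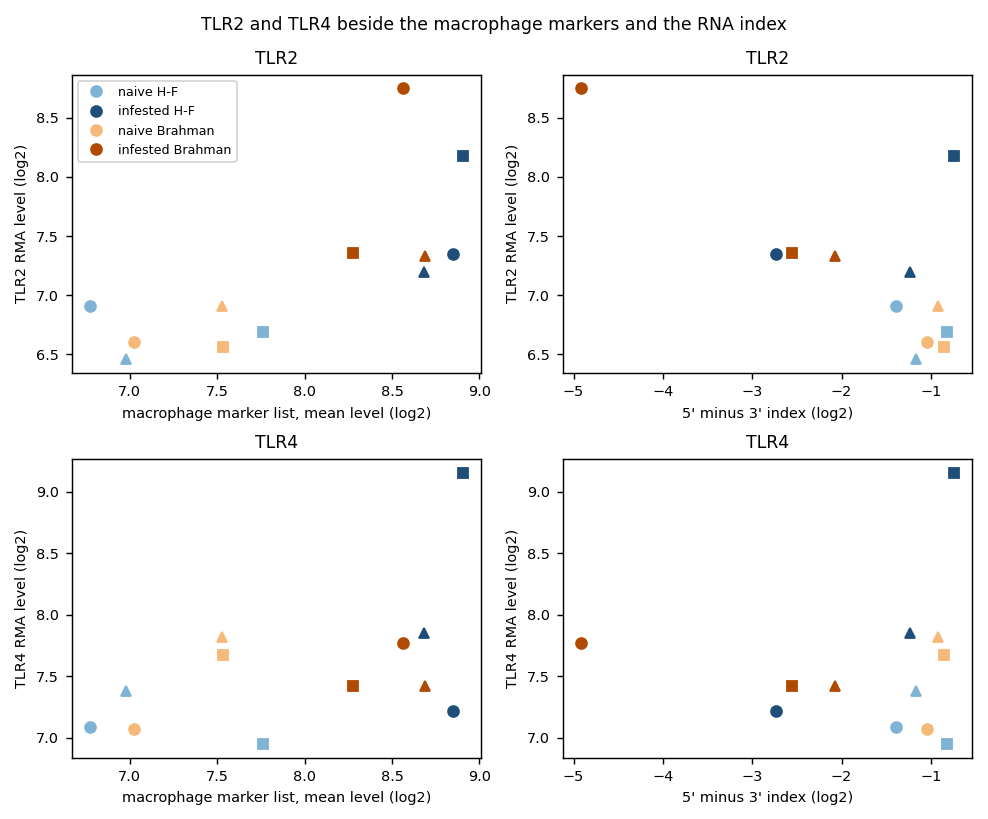
Level of TLR2 (top) and TLR4 (bottom), both log2, against the mean level of 9 macrophage markers (left, log2) and against the 5' minus 3' integrity index (right, log2), 1 point per animal (circle 1, square 2, triangle 3), coloured by group with H-F for Holstein-Friesian. Infested animals lie at 8.28 to 8.90 on the macrophage axis and naive animals at 6.77 to 7.76; infested Brahman animal 1 has the lowest index (-4.91) and the highest TLR2 (8.75).

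The other marker lists gave the following counts, in Holstein-Friesian, where 5.02% of all probe sets were called, and then in Brahman, where 19.8% were. Neutrophil markers were higher for 0 and 1 of 6, T cell markers for 0 and 2 of 7, and markers of B cells and plasma cells for 2 and 0 of 5. Fibroblast markers were higher for 2 and 6 of 6 and skeletal muscle markers for 0 and 1 of 5, and none of the 5 keratinocyte markers passed in either breed. The neutrophil and muscle lists did not rise as a whole. Their median differences were -0.27 and -0.28 in Holstein-Friesian, and -0.28 and -0.60 in Brahman. In the lower direction, 1 of the 2 measured markers of dendritic and Langerhans cells passed in each breed, and endothelial markers passed for 0 and 1 of 6. The T cell list had a median difference of 0.68 in Holstein-Friesian, where its mean level was 6.15 to 6.66 in naive and 6.77 to 7.18 in infested animals, and of 0.27 in Brahman. The part of these cell types in the receptor levels was not tested.

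TLR4, the receptor for bacterial lipopolysaccharide, was high in 1 infested Holstein-Friesian animal and did not pass the test in either breed. Its level was 7.08, 6.95 and 7.38 in naive and 7.22, 9.15 and 7.85 in infested Holstein-Friesian skin. In Brahman skin it was 7.07, 7.67 and 7.82 without ticks and 7.77, 7.42 and 7.42 with them. The naive and infested groups overlapped in both breeds, and the infested Holstein-Friesian group had the widest spread, with an SD of 0.99 against 0.20 to 0.40 in the other groups. By mean, the order was naive Holstein-Friesian (7.14), naive Brahman (7.52), infested Brahman (7.54) and infested Holstein-Friesian (8.08), and neighbours in this order overlapped.

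In Holstein-Friesian the TLR4 difference was 0.94 ± 0.40 (interval 0.063 to 1.81; limma adjusted p = 0.198). Animal 2 of the infested group carried most of it: without that animal it was 0.40, and without infested animal 1 it was 1.36 and passed (adjusted p = 0.0479). Over 22 alternatives, 3 passed and the adjusted p ranged from 0.0255 to 0.472. In Brahman it was 0.016, with an interval of -0.86 to 0.89 and an adjusted p of 0.982. The difference between the breeds in this effect was -0.92, with an interval of -2.15 to 0.31 and an adjusted p of 0.689, so it was not resolved with 3 animals a group. Infested Holstein-Friesian animal 2 was also the highest array for IL6 (9.71), IL1B (8.18) and PTGS2 (9.83), which code for inflammatory mediators, and for these genes the other 11 arrays reached at most 5.21, 5.44 and 7.0. These 3 genes were picked after their values were seen.

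TLR6, TLR5 and TLR9 did not pass the test in any comparison. By signal, TLR5 and TLR9 were at the percentiles 28.8 and 28.6 of all probe sets, so a low-signal filter removed both. TLR6, a partner of TLR2, stayed between 6.60 and 7.48 on the 12 arrays, and naive and infested animals overlapped in both breeds; its extremes were infested Brahman animals 1 and 3. TLR5, the flagellin receptor, was 5.53, 4.96 and 4.52 in naive and 5.62, 5.31 and 5.01 in infested Holstein-Friesian skin. It was 5.40, 5.15 and 5.04 in naive and 4.81, 5.66 and 6.64 in infested Brahman skin, so that 1 infested Brahman animal stood above all others and 1 below all naive Brahman animals. The TLR5 difference was 0.31 (adjusted p = 0.704) in Holstein-Friesian and 0.50 in Brahman (interval -0.37 to 1.38; adjusted p = 0.395), where it was 0.037 without infested Brahman animal 3, 0.95 (adjusted p = 0.0723) without infested Brahman animal 1 and 1.13 (adjusted p = 0.233) with the index as a covariate.

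TLR9, which senses unmethylated CpG DNA, was 5.52, 5.87 and 5.10 in naive and 5.01, 5.14 and 5.26 in infested Holstein-Friesian skin. In Brahman skin it was 5.39, 5.49 and 5.11 without ticks and 5.09, 5.30 and 5.22 with them. The groups overlapped in both breeds. Its difference was -0.36 in Holstein-Friesian (interval -0.77 to 0.055; adjusted p = 0.299) and -0.12 in Brahman (adjusted p = 0.679).

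TLR3, which senses double-stranded RNA, gave the 1 call within a breed, and its probe sets disagreed. For TLR3 S1_at the level was 5.14, 5.80 and 6.23 in naive Brahman animals and 5.21, 4.61 and 4.79 in infested ones. Naive Brahman animal 1 lay below infested Brahman animal 1, so the groups overlapped. The level fell by 0.86 on the log2 scale (SE 0.26), a 1.81-fold fall with a limma adjusted p of 0.0424. In Holstein-Friesian the same probe set read 5.23, 5.61 and 5.55 in naive and 5.03, 5.40 and 5.44 in infested animals, a difference of -0.17 (adjusted p = 0.762), and the difference between breeds was -0.69 (interval -1.51 to 0.13; adjusted p = 0.672).

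The Brahman TLR3 call was close to the threshold. It held in 8 of 20 alternatives, with adjusted p between 0.0032 and 0.183. It was lost without any 1 of the naive Holstein-Friesian animals, infested Holstein-Friesian animal 2 or 3 (all at -0.86), naive Brahman animal 2 (-0.82) or 3 (-0.60), or infested Brahman animal 2 (-0.73) or 3 (-0.82). The call was also lost with median centring (-0.76, adjusted p = 0.0604), in the Brahman arrays alone (-0.86, adjusted p = 0.115) and with the integrity index as a covariate (-0.93, adjusted p = 0.183), at differences of similar size. The mean of this probe set was at the percentile 29.3 of all probe sets by signal, so a low-signal filter removed it.

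The other TLR3 probe sets did not pass in any comparison. The low-signal filter removed them too, at the percentiles 34.6 (A1_a_at) and 32.4 (A1_at). TLR3 A1_a_at read 5.40, 5.55 and 5.94 in naive and 6.62, 5.92 and 5.49 in infested Brahman skin. Its difference was 0.38 (interval -0.20 to 0.96; adjusted p = 0.334), and -0.23 with the index as a covariate. Infested Brahman animal 1 was its highest array. TLR3 A1_at stayed between 5.33 and 5.80 on all 12 arrays. These last probe sets share a source sequence, and over the 12 arrays they correlated with each other at r = 0.70.

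MYD88, the adaptor that the surface receptors and TLR9 share, showed small differences. Its level was 8.89, 9.04 and 9.10 in naive and 9.21, 9.20 and 9.02 in infested Holstein-Friesian skin. In Brahman skin it was 8.85, 9.06 and 9.12 without ticks and 8.39, 9.14 and 8.99 with them. The groups overlapped in both breeds, and the 1 low array was infested Brahman animal 1, the array of lowest index. The difference was 0.13 in Holstein-Friesian (interval -0.27 to 0.54; limma adjusted p = 0.731) and -0.17 in Brahman (interval -0.58 to 0.23; adjusted p = 0.544). Without infested Brahman animal 1 the Brahman difference was 0.054. The group means ran from infested Brahman (8.84) through the naive groups (both 9.01) to infested Holstein-Friesian (9.14), and neighbours in this order overlapped.

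**Figure D3:**
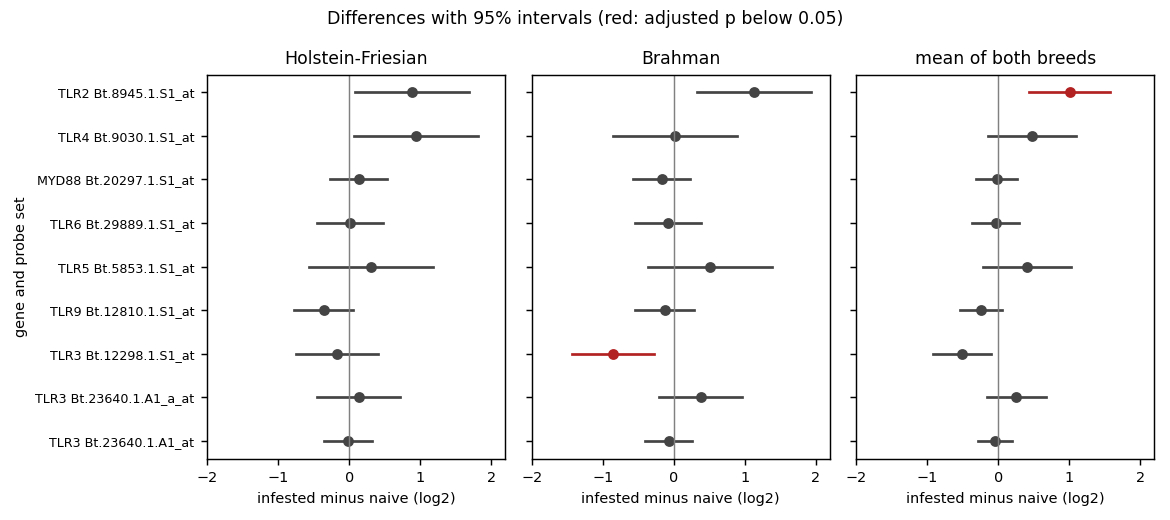
Difference between infested and naive skin (log2, horizontal axes) of the 9 probe sets in Holstein-Friesian, in Brahman and averaged over both breeds; points are limma estimates and bars 95% intervals, in red where the adjusted p is below 0.05. The 2 red points are TLR2 in the average (1.01) and TLR3 S1_at in Brahman (-0.86).

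Counted together, 0 of the 9 probe sets passed limma's test in Holstein-Friesian, where 5.02% of all probe sets did. An unadjusted p below 0.05 was found for 2 members, or 22.2%, close to the 21.6% of all probe sets. In Brahman 1 of 9 passed, which is 11.1% against 19.8% of all probe sets. Unadjusted, 2 members there, or 22.2%, had a p below 0.05, against 34.7% of all probe sets. TLR2 was in each breed the 1 member of 9 whose groups did not overlap. Over all probe sets, 30.3% did not overlap in Holstein-Friesian and 38.5% in Brahman. The median difference of the members was 0.13 in Holstein-Friesian and -0.073 in Brahman, beside -0.032 and 0.041 over all probe sets.

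**Figure D4:**
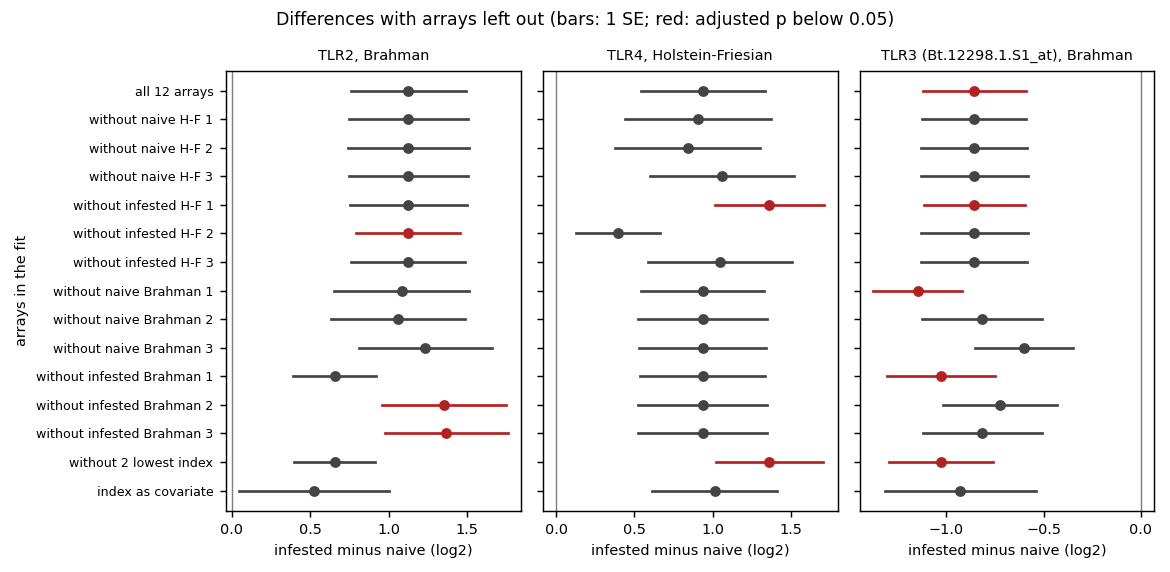
Difference between infested and naive skin (log2, horizontal axes, bars 1 SE) for TLR2 in Brahman, TLR4 in Holstein-Friesian and TLR3 S1_at in Brahman, with all 12 arrays, with each array left out, without the 2 arrays of lowest integrity index and with that index as a covariate; red marks an adjusted p below 0.05. TLR2 drops to 0.66 without infested Brahman animal 1, and TLR4 ranges from 0.40 to 1.36 according to which infested Holstein-Friesian animal is left out.

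Between breeds, no Toll-like receptor or MYD88 probe set passed. In naive skin 0 of 9 passed limma's test, beside 0.025% of all probe sets, and 0 had an unadjusted p below 0.05, beside 4.78%. In infested skin, where the breeds were of the same age, 0 of 9 passed, beside 0.167% of all probe sets. There 0 had an unadjusted p below 0.05, beside 13%. The breeds overlapped for all 9 probe sets in both states, while 14.5% of all probe sets did not overlap in naive and 13.4% in infested skin. The TLR2 difference between infested Brahman and infested Holstein-Friesian was 0.24 (interval -0.56 to 1.04; adjusted p = 0.794), that of TLR4 was -0.54 (interval -1.41 to 0.33; adjusted p = 0.566) and that of MYD88 was -0.30 (interval -0.71 to 0.10; adjusted p = 0.495). The TLR2 value was -0.23 without infested Brahman animal 1, and the TLR4 value was 0.00195 without infested Holstein-Friesian animal 2.

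The infestation effect itself was also compared between breeds. For this difference 0 of 9 passed, beside 0.00416% of all probe sets, and 0 had an unadjusted p below 0.05, beside 7.46%. For TLR2 it was 0.24 (interval -0.90 to 1.37; adjusted p = 0.912) and for MYD88 -0.30 (interval -0.88 to 0.27; adjusted p = 0.762). Without infested Brahman animal 1 the TLR2 value was -0.23. The TLR2 interval admits a breed difference of over 2-fold, so the data do not show that the breeds responded alike.

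The genes around the receptors were taken from 7 lists that held 72 genes, of which 56 were measured. In Holstein-Friesian 7 rose and 2 fell, which is 16.1% of the 56 against 5.02% of all probe sets, and the median difference was 0.14. In Brahman 8 rose and 6 fell, which is 25% against 19.8%, with a median of 0.11. The probe set of highest mean, called leading here, stood for a gene. Of the 36 other probe sets of these genes, 1 was higher in Holstein-Friesian, and 3 were higher and 6 lower in Brahman. The Holstein-Friesian count changed when single animals were left out, and so did the share of all probe sets called. The count was 1 without naive Holstein-Friesian animal 1, where 0.654% of all probe sets were called. It was 3 without naive animal 2 (1.34%), infested animal 2 (2.12%) or infested animal 3 (1.15%). Without naive animal 3 of that breed it was 5 (2.40%). It was 5, 3 and 4 without naive Brahman animal 1, 2 or 3 (4.06%, 3.06% and 3.36%). With replicate number as a block over all arrays it was 5 (4.36%), and 8 with that block in the 6 Holstein-Friesian arrays alone (5.82%). With each array centred on its median, the split was 7 higher and 0 lower in Holstein-Friesian and 8 and 5 in Brahman. The Brahman count was 4, 4 and 3 without naive Brahman animal 1, 2 or 3, where 13.1%, 11.3% and 9.23% of all probe sets were called. It was 8 without infested Brahman animal 1 (19.5%) or 2 (16.3%), and 5 with the integrity index as a covariate (7.53%). Of the named calls that follow, with each array left out in turn, those of CD14 in both breeds and of FN1 and SIGIRR in Brahman held in 12 of 12 fits, those of FN1 and BTK in Holstein-Friesian in 11, and the others, IKBKB aside, in 2 to 9.

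Among the co-receptors and trafficking proteins, 1 of 7 rose in Holstein-Friesian, where 5.02% of all probe sets were called. In Brahman, where 19.8% were called, 2 rose and 1 fell. CD14 hands lipopolysaccharide and lipoproteins to TLR4 and TLR2, and it is also 1 of the macrophage markers counted above. Its level was 7.69, 8.47 and 7.79 in naive and 9.89, 10.65 and 10.08 in infested Holstein-Friesian skin. In Brahman skin it was 7.37, 8.29 and 8.43 without ticks and 9.66, 9.14 and 9.76 with them. All infested animals lay above all naive animals. CD14 rose by 2.22 ± 0.32 in Holstein-Friesian, or 4.67-fold (limma adjusted p = 0.00698), and by 1.49 ± 0.32 in Brahman, or 2.81-fold (adjusted p = 0.0107), and it passed in 22 of 22 and 21 of 21 alternatives. A second CD14 probe set rose by 1.43 in Holstein-Friesian (adjusted p = 0.0348) and did not pass in Brahman (0.58, adjusted p = 0.235).

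LBP, the serum protein that brings lipopolysaccharide to CD14, rose by 0.67 in Brahman (adjusted p = 0.0277) and stood at 0.61 in Holstein-Friesian without passing. Its signal was low, at 4.01 to 5.09 on the 12 arrays, whose medians were 6.58 to 6.73. The Brahman call of LBP held in 11 of 20 alternatives. With the integrity index as a covariate the Brahman value of LBP was 0.41 (adjusted p = 0.355). HSP90B1, the chaperone that folds most Toll-like receptors, fell by 1.39 on the log2 scale in Brahman (adjusted p = 0.0242). Its Brahman difference was -0.49 with the integrity index as a covariate and did not pass. CD36, a scavenger receptor that works with TLR2 and TLR6, did not pass in either breed (1.45 and 0.60).

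Adaptors other than MYD88 were represented by 1 of 4 listed genes, TICAM2, which links TLR4 to the TRIF branch. TICAM2 rose by 0.61 in Brahman (adjusted p = 0.0449) and had the same value, 0.61, in Holstein-Friesian without passing. The Brahman call held in 9 of 21 alternatives, and the value was 0.44 without infested Brahman animal 1 and, with the index in the model, 0.29 (adjusted p = 0.533).

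Of the 13 kinases and ubiquitin ligases, 4 rose in Holstein-Friesian, where 5.02% of all probe sets were called, and 3 in Brahman, where 19.8% were. None fell on the leading probe set of its gene. Further probe sets of IRAK4 and IKBKE, kinases near the receptors and in the interferon branch, fell by 1.38 and 0.69 on the log2 scale in Brahman (adjusted p = 0.0282 and 0.037), and one of TRAF3 rose by 0.48 (adjusted p = 0.0314). BTK, a kinase of B cells and myeloid cells, rose by 1.47 in Holstein-Friesian (2.77-fold, adjusted p = 0.0143), where the groups did not overlap at 5.45 to 5.98 and 6.94 to 7.29. BTK stood at 0.20 in Brahman (adjusted p = 0.615). CHUK, an NF-kappa-B kinase subunit, rose by 0.69 in Holstein-Friesian (adjusted p = 0.0462), and IKBKB, its partner, rose by 0.76 in Brahman (adjusted p = 0.0349); IKBKB was named after its values were seen.

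PELI1, a ubiquitin ligase that acts on IRAK proteins, rose by 0.89 in Holstein-Friesian (adjusted p = 0.0311) and 0.65 in Brahman (adjusted p = 0.0415) on 1 of its 3 probe sets. The other PELI1 probe sets did not pass, and stood at 0.038 and 0.32 in Holstein-Friesian and at -0.65 and -0.33 in Brahman. TAB2, which joins TRAF6 to the kinase TAK1, rose by 0.83 and 0.77 (adjusted p = 0.0473 and 0.0281) on 1 probe set. Its other probe set fell by 1.42 on the log2 scale in Brahman (adjusted p = 0.0389), so TAB2 has no single direction there.

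Of the 7 inhibitors of the pathway, 1 fell in Holstein-Friesian, where 5.02% of all probe sets were called, and none rose. In Brahman 2 fell, where 19.8% were called, and none rose. Called or not, 4 of the 7 had a positive difference in Holstein-Friesian (median 0.053) and 1 in Brahman (median -0.42). SIGIRR, a receptor-like protein that dampens Toll-like receptor and interleukin signals, read 8.88, 8.41 and 8.77 in naive and 8.25, 7.63 and 7.55 in infested Holstein-Friesian skin. In Brahman skin it read 9.07, 8.58 and 9.01 without ticks and 7.31, 7.73 and 7.47 with them. The groups did not overlap in either breed. SIGIRR fell by 1.39 on the log2 scale in Brahman (adjusted p = 0.00278), in 21 of 21 alternatives, and by 0.88 in Holstein-Friesian (adjusted p = 0.047), in 8 of 22.

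CYLD, a deubiquitinase that restrains NF-kappa-B, fell by 0.81 on the log2 scale in Brahman (adjusted p = 0.0315). NFKBIZ and TNIP1 did not pass on their leading probe sets (-0.94 and -0.42 in Brahman). A further TNIP1 probe set fell by 1.16 on the log2 scale there (adjusted p = 0.00262).

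Of the 8 transcription factors, 1 fell in Holstein-Friesian, where 5.02% of all probe sets were called, and 2 in Brahman, where 19.8% were. None rose on its leading probe set. IRF7, an interferon regulator downstream of TLR9, fell by 0.45 on the log2 scale in Holstein-Friesian (adjusted p = 0.0372) on 1 of its 3 probe sets. IRF3, which the TRIF branch of TLR3 and TLR4 activates, fell by 0.92 on the log2 scale in Brahman (adjusted p = 0.0266). Its level was 9.68, 9.53 and 9.77 in naive and 8.07, 8.86 and 9.28 in infested Brahman skin, and the difference was -0.59 without infested Brahman animal 1 and -0.41 (adjusted p = 0.453) with the index as a covariate. NFKB2 fell by 0.67 on the log2 scale in Brahman (adjusted p = 0.0429) in 5 of 21 alternatives, and was at -0.42 without that animal and -0.20 (adjusted p = 0.656) with the index. IRF5 did not pass on its leading probe set (0.75 and 0.52), and another of its probe sets fell by 0.91 on the log2 scale in Brahman (adjusted p = 0.0493).

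Of the 7 proteins known as damage ligands of the receptors, 1 rose in Holstein-Friesian, where 5.02% of all probe sets were called. In Brahman, where 19.8% were called, 2 rose and 1 fell. FN1, fibronectin, rose by 1.23 in Holstein-Friesian (adjusted p = 0.0093) and 1.75 in Brahman (3.35-fold, adjusted p = 0.00058). Its second probe set passed in Brahman alone (0.43, adjusted p = 0.315, and 0.72, adjusted p = 0.0493). VCAN, the proteoglycan versican, rose by 1.26 in Brahman (adjusted p = 0.0365) and was at 0.80 without infested Brahman animal 3. A further VCAN probe set rose there by 1.88 (adjusted p = 0.00115), and another did not pass (0.55, adjusted p = 0.65). FN1 and VCAN are products of fibroblasts, whose markers rose as counted above. HSPD1, a mitochondrial chaperone, fell by 0.82 on the log2 scale in Brahman (adjusted p = 0.0221), and HMGB1 did not pass (-0.066 and 0.33).

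Of the 13 target cytokines and inflammatory mediators, 1 rose in Holstein-Friesian, where 5.02% of all probe sets were called. None passed in Brahman, where 19.8% of all probe sets did. CXCL8, the neutrophil chemokine, read 4.72, 5.44 and 4.47 in naive and 6.50, 9.93 and 8.85 in infested Holstein-Friesian skin. All 3 infested animals lay above the naive ones, with animal 2 the highest. CXCL8 rose by 3.55 (11.7-fold, adjusted p = 0.0399), by 2.80 without infested animal 2 and by 4.51 without infested animal 1. The call held in 13 of 22 alternatives. In Brahman it was at 1.73 (adjusted p = 0.17). IL10, CCL3 and CCL5 did not pass in either breed, with differences between -0.60 and 0.59 on their leading probe sets. Another CCL3 probe set stood at 2.40 in Holstein-Friesian and 1.56 in Brahman without passing (adjusted p = 0.115 and 0.199), opposite to the leading one (-0.42 and -0.60).

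**Figure D5:**
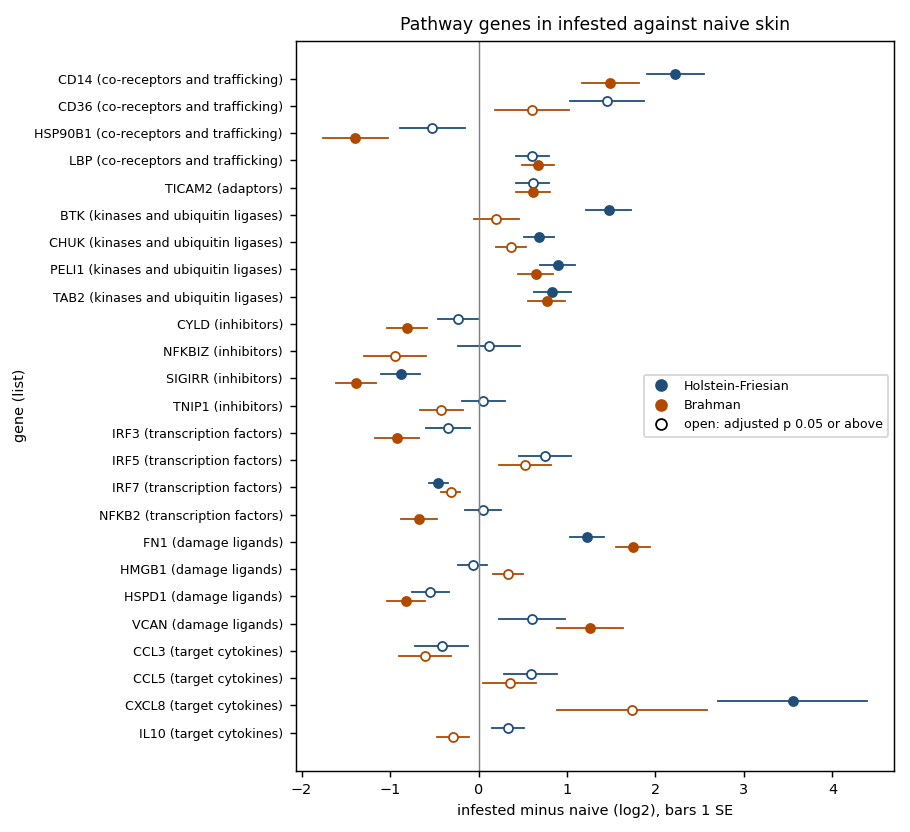
Difference between infested and naive skin (log2, horizontal axis, bars 1 SE) of up to 4 genes from each pathway list (vertical axis), in Holstein-Friesian (blue) and Brahman (brown); filled points have a limma adjusted p below 0.05. CD14 (2.22 and 1.49) and FN1 (1.23 and 1.75) are filled on the right and SIGIRR (-0.88 and -1.39) on the left in both breeds.

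The breed difference in the infestation effect was also tested for these genes. Over the 9 member probe sets and 56 pathway genes, 65 in all, limma called 0 and the smallest adjusted p was 0.555. An unadjusted p below 0.05 was found for 4, or 6.15%, beside 7.46% of all probe sets. A gene that passed in 1 breed and not in the other, such as BTK, CXCL8 or HSP90B1, was therefore not shown to differ between them.

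The genes whose pattern was most like a member were ranked by Pearson correlation over the 12 arrays among 9154 genes. These correlations are descriptions: all arrays share the infestation and RNA integrity differences given above. Spread within groups was widest in infested Holstein-Friesian for TLR4 (SD 0.99). For TLR2 and MYD88 it was widest in infested Brahman (SD 0.81 and 0.40). Correlations over deviations from the group means can therefore rest on few arrays. For TLR2 the 4 highest were ITGAD (r = 0.97), P2RY13 (0.95), SLC18A2 (0.94) and GFI1 (0.93), and over deviations from the group means they were at 0.93, 0.94, 0.88 and 0.90. P2RY13 is a nucleotide receptor and SLC18A2 a vesicular monoamine transporter. P2RY13 passed in both breeds (1.47, adjusted p = 0.0348, and 1.81, adjusted p = 0.0055). ITGAD, an integrin subunit of leukocytes, passed in neither (1.01 and 1.27, adjusted p = 0.21 and 0.0646). Nor did SLC18A2 (0.88 and 1.25, adjusted p = 0.323 and 0.0915) or GFI1 (0.45 and 0.67, adjusted p = 0.4 and 0.128).

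For TLR4 the 4 highest were TIPARP (r = 0.98), PDP1 (0.94), NFIL3 (0.94) and NOCT (0.93), at 0.96, 0.93, 0.94 and 0.91 over deviations from the group means. None of these 4 passed in either breed. For MYD88 they were PLXNA2 (r = 0.94), CLTB (0.94), NSFL1C (0.93) and U2AF1 (0.93), at 0.95, 0.94, 0.93 and 0.93 over deviations, and none of them passed either. Among the members, TLR2 and TLR4 correlated at 0.57 and TLR2 and MYD88 at -0.45 over the 12 arrays.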

How the data were processed

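The authors deposited normalised levels as log2 values, with 1 value for each probe set on each array. RMA is named in the submitters' processing notes, the range of the values shows a log2 scale, and which software and chip definition made them is not given in the sources used here. Of 24128 probe sets, 112 controls were left out and 24016 were tested, with no low-signal filter. Gene symbols came from the platform annotation: 13292 probe sets had 1 symbol, 86 had several and 10638 had none. Detection calls were not used, so signal over background is unknown.

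One linear model over the 12 arrays (group means, no covariates) was fitted with limma 3.58.1 (R 4.3.3). Residual degrees of freedom were 8 and the prior added 3.03. Tests were two-sided, with Benjamini-Hochberg adjustment over all probe sets within a comparison and a threshold of 0.05. The model was tested on simulated data. Intervals are 95% and unadjusted. Precision is limited by the number of arrays, 3 a group. The members, the 7 pathway lists and the 9 marker lists were chosen with earlier results of these data known. Named genes were all members, up to 4 genes of each pathway list (most comparisons passed, then smallest p), and the 4 genes most correlated with TLR2, TLR4 and MYD88. Exceptions are named as such. The average over breeds, the block fit restricted to Holstein-Friesian and the alternatives for the pathway counts were added after the data were seen.

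Same-numbered naive and infested Holstein-Friesian arrays deviated together from their group means (r = 0.22, 0.25 and 0.11), and Brahman ones did not (r = -0.19, -0.05 and -0.08). Same-numbered naive Holstein-Friesian and naive Brahman arrays, which came from animals of different breeds, gave r = 0.33, 0.022 and 0.20. The measure therefore does not show that the numbers paired animals. The labels state no pairing, and the block was an alternative.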

Additional observations from a re-analysis of the deposited data

How the results depend on the processing

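Alternatives were a low-signal filter, cyclic loess, median centring, a prior that was trended and robust, a fit of the compared arrays alone, array weights, a replicate block, the integrity index as a covariate, the fit without the 2 arrays of lowest index, and each array left out. The replicate block changed no member's call: for TLR2 in Brahman the adjusted p was 0.0621, for TLR3 0.0469, and for the TLR2 average 0.0215. It gave 5 pathway genes in Holstein-Friesian, and 8 in those 6 arrays alone. Member calls in Holstein-Friesian were 2 with array weights (19.1% of all probe sets called) and without the 2 lowest arrays (17.0%). They were 0 to 1 with 1 array left out. In Brahman they were 2 with cyclic loess (20.8%), the trended prior (19.7%) or array weights (31.9%). They were 0 in the compared arrays alone (12.5%) or with the index (7.53%), and 0 to 1 with 1 array left out. In the average they were 2 with array weights, 0 with the index, and 1 to 2 with 1 array left out. Pathway calls in Holstein-Friesian were 5 with the trended prior (4.38% of all probe sets called) and 4 in the compared arrays alone (5.18%). They were 17 with array weights (19.1%), 16 without the 2 lowest arrays (17.0%), and 1 to 12 with 1 array left out (0.654% to 10.7%). In Brahman they were 6 in the compared arrays alone (12.5%) and 5 with the index (7.53%). With 1 array left out they were 3 to 14 (9.23% to 23.2%). The cause was not tested, except that array weights and omissions change which arrays count.

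No called difference changed sign. Among uncalled ones, TLR4 in Brahman (0.016) became -0.17 with array weights and -0.10 without the 2 lowest arrays, and ran from -0.21 to 0.17 with 1 array left out. MYD88 in Brahman (-0.17) became 0.19 with the index and 0.054 without the 2 lowest arrays (-0.32 to 0.054 with 1 left out). With the index, TLR3 A1_a_at became -0.23 and TLR9 0.070 in Brahman. The TLR2 breed difference in the infestation effect (0.24) became -0.052 with array weights, -0.25 with the index and -0.34 without the 2 lowest arrays (-0.23 to 0.54 with 1 left out). Between infested breeds TLR2 (0.24) became -0.14, -0.19 and -0.34 in the same 3 fits (-0.23 to 0.54), and TLR4 ran from -0.96 to 0.00195 with 1 left out. Of 24 differences given only as ranges or counts, 54 of 485 alternative values had the other sign, and none was called. With 3 animals a group and age tied to infestation, small differences cannot be resolved.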
